A study of Mus musculus with 10 samples.

Results

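Crip3, Rxfp2, Tecrl, A730036I17Rik, Fam19a4, Gm12199, and Tspan8 are 7 of the 16112 genes in the deposited count table of mouse EDL, psoas, and soleus muscles. They were selected on their measured counts, because these were extremely unequal between these muscles and because their role in muscle is little known. Since the counts of these same libraries were used, their differences between muscles are given as a description, without a test.

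RNA was sequenced in 10 libraries of skeletal muscle, 3 of the extensor digitorum longus (EDL, a fast hindlimb muscle), 3 of psoas (a hip flexor), and 4 of soleus (a slow postural muscle of the calf). All mice were homozygous wild type animals of the B6C3Fe a/a-Ttnmdm/J strain, from a colony that began with heterozygotes, and they had also served another study. No treatment is part of the comparison. The EDL and the psoas libraries came from mice of 42, 54, and 44 days (replicates 1, 2, and 3), and the soleus libraries from mice of 42, 44, 32, and 44 days (replicates 1 to 4). Replicates 1 and 2 of EDL and psoas and replicate 1 of soleus were labelled male, replicate 3 of EDL and psoas and replicates 2 and 4 of soleus female, and the sex of soleus 3 was not given. The labels hold 7 animal codes, which is more than the number of mice in the methods, and 3 codes were shared by 2 libraries each.

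Total counts ranged from 12737971 in soleus 3 to 50431713 in psoas 1. Levels are given as TMM-normalized CPM (counts scaled to library size), and a count of 3, the upper limit that an observed 0 allows, was the floor of each library. The floor lay between 0.0565 CPM in EDL 2 and 0.239 CPM in soleus 3 and covers counting error only. Summed over 8 markers of skeletal muscle fibers (Acta1, Ckm, Mb, Des, Ttn, Myh1, Myh2, and Myh4), levels were between 87300 and 170600 CPM in every library.

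Of the 7 genes, 5 code for proteins and 2 are noncoding. Crip3 is a cysteine-rich protein with LIM domains, the zinc-binding modules that many muscle structural and regulatory proteins use to bind partners. Rxfp2 is the G protein-coupled receptor of insulin-like peptide 3 and is known for its part in testicular descent. Tecrl resembles the reductase Tecr, which carries out the last step of very long chain fatty acid elongation, and is known as a heart gene whose loss of function causes an inherited arrhythmia with disturbed calcium release. Fam19a4, also named Tafa4, is a secreted chemokine-like protein known from sensory neurons that detect gentle touch. Tspan8 is a tetraspanin, a protein with several membrane passes that organizes partners at the cell surface, and is known mostly from epithelia and tumors. A730036I17Rik is annotated as a long intergenic noncoding RNA and Gm12199 as an antisense RNA, and neither has a known function.

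On GRCm38 with the GENCODE M21 annotation, Crip3 is on the plus strand at chr17:46428926-46431776, Rxfp2 on the plus strand at chr5:150018675-150082184, Tecrl on the minus strand at chr5:83278145-83355195, Fam19a4 on the minus strand at chr6:96831203-97060413, and Tspan8 on the plus strand at chr10:115816832-115849893. A730036I17Rik is on the plus strand at chr2:129218969-129235604, and 364 of its exon bases are also exon bases of 9830144P21Rik, a noncoding transcript of the opposite strand. Gm12199 is on the minus strand at chr11:50717670-50718915, inside Adamts2, which lies on the plus strand, and shares 0 exon bases with it. Rxfp2 shares 294 exon bases with the antisense gene Gm42557, and Tspan8 shares 4 with 4930422I22Rik, which were not analysed here. Tecrl and Rxfp2 are both on chromosome 5 but far from each other. The strand setting of the authors' counting is not given in the sources used here, and reads of overlapping genes on opposite strands may not have been told apart.

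RefSeq (GRCm38.p6) holds a start site for 5 of the 7 genes. The 250 bases upstream of each start are shown because the genes differ between muscles in RNA level and this is the stretch next to the RefSeq start. For Tspan8 this start lies inside the gene as GENCODE annotates it. They are written 5′ to 3′ on the strand of the gene, and capitals mark each match to the E-box CANNTG, the core letters that myogenic basic helix-loop-helix factors bind. The windows are chr5:83355196-83355445 (minus strand) for Tecrl, chr2:129218719-129218968 (plus) for A730036I17Rik, chr5:150018425-150018674 (plus) for Rxfp2, chr6:97060412-97060661 (minus) for Fam19a4, and chr10:115817034-115817283 (plus) for Tspan8.
Tecrl: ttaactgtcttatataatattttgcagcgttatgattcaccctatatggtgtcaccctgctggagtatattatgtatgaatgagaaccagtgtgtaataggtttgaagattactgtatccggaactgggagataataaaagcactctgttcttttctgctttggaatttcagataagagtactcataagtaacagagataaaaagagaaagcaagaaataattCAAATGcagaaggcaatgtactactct
A730036I17Rik: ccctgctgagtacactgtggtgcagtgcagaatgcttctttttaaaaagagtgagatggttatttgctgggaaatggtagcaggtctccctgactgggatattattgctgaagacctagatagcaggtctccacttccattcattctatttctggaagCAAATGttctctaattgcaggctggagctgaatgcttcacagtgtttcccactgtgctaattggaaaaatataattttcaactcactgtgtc
Rxfp2: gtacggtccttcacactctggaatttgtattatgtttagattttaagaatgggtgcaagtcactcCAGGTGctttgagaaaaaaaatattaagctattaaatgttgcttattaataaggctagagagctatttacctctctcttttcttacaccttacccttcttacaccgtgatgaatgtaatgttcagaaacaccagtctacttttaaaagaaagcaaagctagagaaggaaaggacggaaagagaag
Fam19a4: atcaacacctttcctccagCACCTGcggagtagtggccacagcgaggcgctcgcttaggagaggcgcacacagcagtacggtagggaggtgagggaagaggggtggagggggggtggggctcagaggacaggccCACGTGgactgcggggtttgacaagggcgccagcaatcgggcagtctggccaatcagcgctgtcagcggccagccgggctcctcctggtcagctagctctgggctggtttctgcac
Tspan8: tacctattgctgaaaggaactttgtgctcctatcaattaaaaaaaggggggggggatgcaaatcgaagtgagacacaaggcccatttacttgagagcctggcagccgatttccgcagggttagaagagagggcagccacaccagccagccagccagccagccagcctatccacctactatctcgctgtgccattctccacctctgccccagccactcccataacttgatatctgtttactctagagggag

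Tecrl, A730036I17Rik, and Rxfp2 each hold 1 E-box match, at positions −27, −92, and −185 from the start, Fam19a4 holds 2, at −231 and −116, and Tspan8 holds 0. Over all 32851 RefSeq windows of this length, 66.2% hold at least 1 match, so that having such letters does not set these genes apart. The MEF2 box CTANNNNTAG (3.2% of all windows), the M-CAT element CATTCC (12.6%), and TATAAA (12.4%) were matched in 0 of the 5 windows on either strand. The NFAT core GGAAA, searched on both strands, is found in 55.6% of all windows. It was matched 3 times in A730036I17Rik, 2 times in Rxfp2, 1 time each in Fam19a4 and Tspan8, and 0 times in Tecrl. The GC content was 34.4% for Tecrl, 36.0% for Rxfp2, 42.4% for A730036I17Rik, 52.4% for Tspan8, and 65.2% for Fam19a4, with a median of 52.4% over all windows. The windows of Tecrl and Rxfp2 have a lower GC content than most, with 4.25% and 5.81% of all windows below them. A match is a description of letters and does not show that a factor binds there.

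By detection, the 7 genes fell into groups by muscle. Every library of soleus was at or under 3 counts for Rxfp2, Fam19a4, and Gm12199, every library of EDL for Crip3, and every library of both EDL and psoas for Tecrl and A730036I17Rik. This makes 6 of the 7 genes, 4 of them with 1 such muscle and 2 with a pair. Over all 16112 genes, 2.22% had every library of 1 or 2 muscles at or under 3 counts, 2.12% for 1 muscle and 0.106% for 2 muscles. Since this property chose the genes, nothing is read from their share. Tspan8 was the exception, with 53 to 81 counts in the soleus libraries, all above the floor, and its restriction was in level and not in detection. Rxfp2 was just outside the limit in a second muscle, with 4 counts in EDL 1 beside 1 and 0 in EDL 2 and EDL 3.

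**Figure D1:**
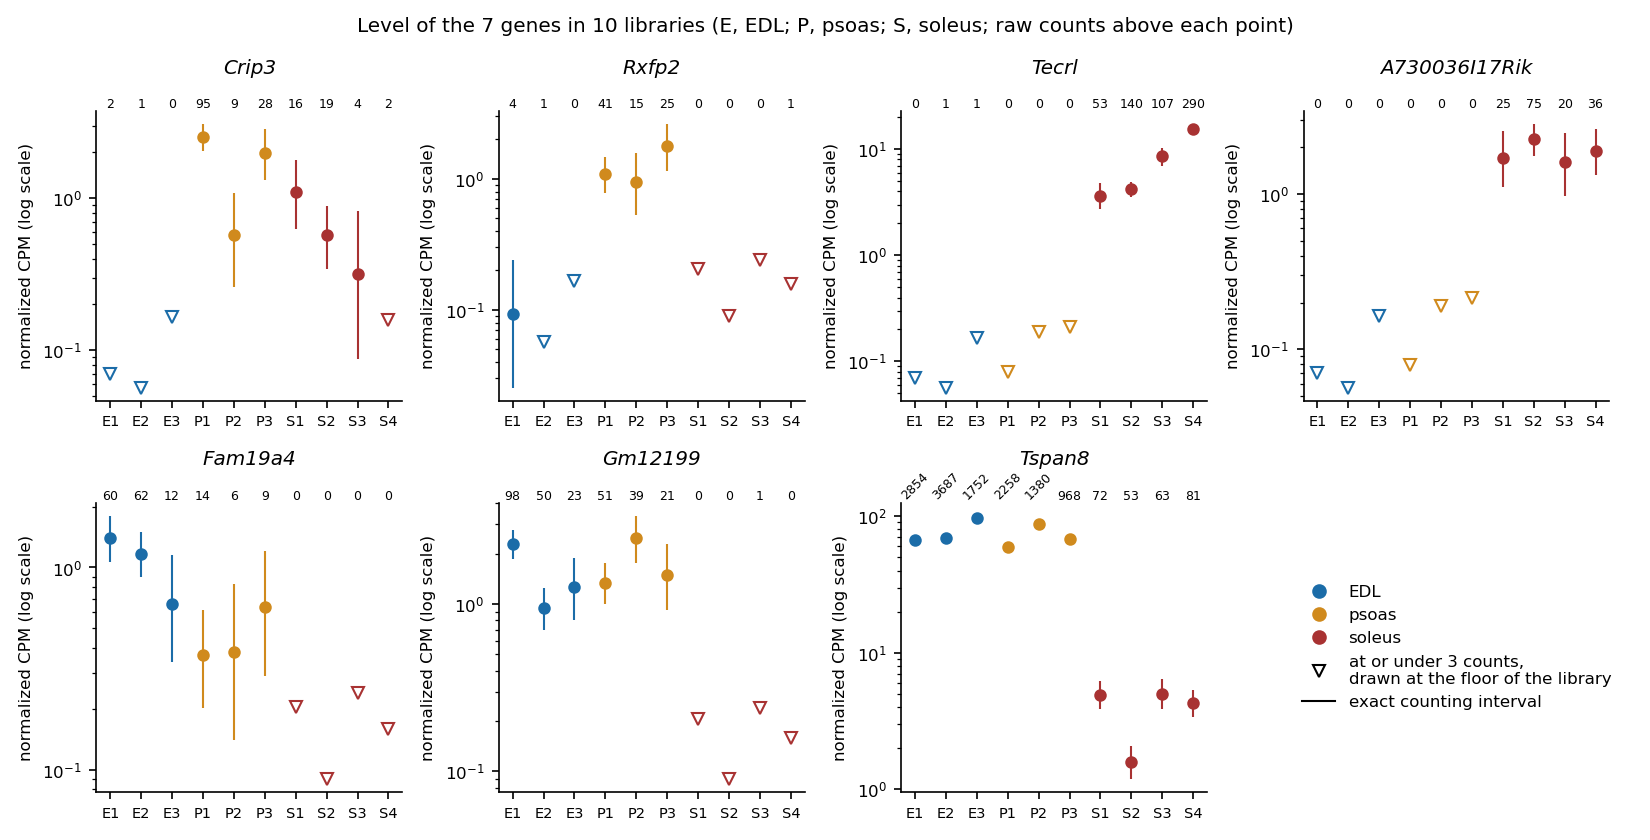
Normalized CPM of each gene (log axis) in the 3 EDL (E), 3 psoas (P), and 4 soleus (S) libraries, with raw counts above; bars are exact 95% counting intervals, and open triangles mark libraries at or under 3 counts, drawn at the floor of that library. Tecrl and A730036I17Rik are above the floor in soleus libraries alone, Rxfp2, Fam19a4, and Gm12199 are at the floor in all 4 soleus libraries, and Tspan8 is above the floor everywhere.

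Tecrl was read almost only in soleus. It had 53, 140, 107, and 290 counts in soleus 1 to 4, against 0, 1, and 1 in EDL and 0 in each psoas library. The corresponding soleus levels were 3.63, 4.19, 8.53, and 15.3 CPM. Every soleus library was far above every EDL and psoas library. Its mean in soleus was 7.91 ± 5.40 CPM (SD, n = 4), 423-fold the level of EDL by pooled counts (exact 95% interval 117 to 3502, counting error only) and at least 49.3-fold that of psoas, which was set at the mean of its floors.

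Within soleus, Tecrl varied more than the other gene restricted to this muscle. The highest soleus library was 4.22 times the lowest, with counting intervals that do not meet (2.72 to 4.74 CPM in soleus 1 and 13.6 to 17.2 CPM in soleus 4). The coefficient of variation was 68.2% for Tecrl and 15.2% for A730036I17Rik in the same 4 libraries. Soleus 2 and soleus 4 came from mice of the same age (44 days).

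A730036I17Rik was read in soleus alone. It had 25, 75, 20, and 36 counts there and 0 in all 6 EDL and psoas libraries. The soleus levels were 1.71, 2.24, 1.60, and 1.90 CPM, close to each other, with a mean of 1.86 ± 0.283 CPM (SD, n = 4). This is at least 19.2-fold the level of EDL and at least 11.6-fold that of psoas, and both bounds are set by the floors of those libraries. The antisense transcript that shares 364 exon bases with it, 9830144P21Rik, followed another order, with 39, 25, and 3 counts in EDL, 4, 0, and 0 in psoas, and 1, 10, 1, and 3 in soleus.

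Rxfp2, the receptor, was highest in psoas. It had 41, 15, and 25 counts in psoas, 4, 1, and 0 in EDL, and 0, 0, 0, and 1 in soleus. The psoas levels were 1.08, 0.951, and 1.77 CPM, all above every library of the other muscles. The mean in psoas was 1.27 ± 0.440 CPM (SD, n = 3), 33.9-fold that of EDL (0.0374 CPM), which lies under the mean floor of the EDL libraries (0.0971 CPM). By pooled counts psoas was 27.3-fold EDL (exact 95% interval 11.2 to 86.2) and 85.2-fold without EDL 1 (14.9 to 3405). The lowest psoas library was 10.2-fold the highest EDL library. By pooled counts psoas was 95.04-fold soleus (exact 95% interval 16.6 to 3799). EDL and soleus overlapped, and their ratio of 3.49 had an interval of 0.390 to 165, so that a difference between them was not detectable at this depth.

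Crip3, the LIM domain gene, was also highest in psoas but was read in soleus too. Its counts were 95, 9, and 28 in psoas, 16, 19, 4, and 2 in soleus, and 2, 1, and 0 in EDL. The psoas levels were 2.51, 0.571, and 1.98 CPM and those of soleus 1.10, 0.568, 0.319, and 0.106 CPM. Psoas 2 lay at the level of soleus 2, so that psoas and soleus overlapped, while every library of both had a higher value than those of EDL. Soleus 4, with 2 counts, was at the floor like the EDL libraries, and its counting interval (0.0128 to 0.381 CPM) covers their levels, so that this library was not resolved from EDL. The mean was 1.69 ± 1.001 CPM in psoas (SD, n = 3), 0.522 ± 0.426 CPM in soleus (n = 4, or 0.331 CPM without soleus 1), and 0.0219 ± 0.0235 CPM in EDL (n = 3). Psoas was 74.1-fold EDL by pooled counts (exact 95% interval 24.8 to 364), and soleus was 19.6-fold EDL (6.25 to 99.0). The order among muscles was thus psoas, soleus, EDL, in which the upper pair did not differ beyond the spread of the libraries (ratio of means 3.23).

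Within psoas, the library lowest for Crip3 was also the lowest for markers of nerve, but the other libraries did not follow the same order. The sum over the 7 measured of 8 Schwann cell and nerve markers was 60.7, 19.0, and 92.1 CPM in psoas 1, 2, and 3. The sum was 36.2 to 58.6 CPM in EDL, where Crip3 was at the floor. In soleus 1 to 4 it was 31.5, 40.4, 43.8, and 36.3 CPM. It was thus lowest in soleus 1, the soleus library with the highest Crip3 (1.10 CPM). Sox10 had no row in the table. The nerve list was not the only one with psoas 2 at an end. In psoas 1, 2, and 3, adipocyte markers summed to 478, 467, and 541 CPM and tendon markers to 30.9, 82.4, and 39.8 CPM. Fibroblast markers, at 634, 574, and 370 CPM, had psoas 2 in the middle. The part of these cells in the level of Crip3 was not tested.

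Fam19a4 was read in both fast muscles and in no soleus library. It had 60, 62, and 12 counts in EDL, 14, 6, and 9 in psoas, and 0 in all 4 soleus libraries. The levels were 1.40, 1.17, and 0.659 CPM in EDL and 0.369, 0.380, and 0.637 CPM in psoas. EDL was at least 6.22-fold and psoas at least 2.67-fold soleus, which are bounds set by the floors of the soleus libraries. The mean in EDL was 1.08 ± 0.380 CPM (SD, n = 3) against 0.462 ± 0.152 CPM in psoas (n = 3), a ratio of 2.33. EDL and psoas did not overlap, but the lowest EDL library was only 1.03-fold the highest psoas library, and the counting intervals of these libraries (0.341 to 1.15 CPM and 0.291 to 1.21 CPM) lie over each other.

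The reads of replicates 1 and 2 of EDL and psoas were quality-trimmed by the authors, and those of the other 6 libraries were not. The trimmed libraries were also those of male mice and EDL 3 and psoas 3 those of female mice, so that trimming and sex cannot be told apart here. Fam19a4 was 3.43-fold higher in EDL than in psoas among the trimmed libraries and 1.03-fold higher between the untrimmed EDL 3 and psoas 3. For Rxfp2, psoas was 18.1-fold EDL among the trimmed libraries, and the untrimmed libraries had 25 counts in psoas 3 and 0 in EDL 3. For Crip3, the untrimmed libraries had 28 counts in psoas 3 and 0 in EDL 3. All soleus libraries were untrimmed, so that trimming and muscle cannot be told apart in soleus without the untrimmed libraries of the other muscles. Among untrimmed libraries alone, Tspan8 was 24.3-fold higher in EDL and 17.3-fold higher in psoas than in soleus, and Tecrl and A730036I17Rik had 1 and 0 counts in EDL 3 and 0 and 0 in psoas 3.

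Gm12199, the antisense RNA inside Adamts2, was read in both fast muscles at like levels. It had 98, 50, and 23 counts in EDL, 51, 39, and 21 in psoas, and 0, 0, 1, and 0 in soleus. The levels were 2.29, 0.942, and 1.26 CPM in EDL and 1.35, 2.47, and 1.49 CPM in psoas, with a mean of 1.50 ± 0.703 CPM and 1.77 ± 0.614 CPM (SD, n = 3 each). These overlapped, with a ratio of 1.181. By pooled counts EDL was 119-fold (exact 95% interval 21.1 to 4736) and psoas 130-fold (22.9 to 5190) soleus. Adamts2, an enzyme that trims procollagen, was read in every soleus library, at 13.9, 18.8, 3.91, and 13.4 CPM, where Gm12199 was at 0, 0, 0.0797, and 0 CPM. In EDL, Adamts2 was at 24.1, 18.6, and 29.2 CPM and in psoas at 14.0, 8.56, and 13.0 CPM.

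Tspan8 was the most abundant of the genes by far. It had 2854, 3687, and 1752 counts in EDL, 2258, 1380, and 968 in psoas, and 72, 53, 63, and 81 in soleus. The levels were 66.7, 69.5, and 96.2 CPM in EDL, 59.6, 87.5, and 68.5 CPM in psoas, and 4.93, 1.59, 5.02, and 4.28 CPM in soleus. EDL and psoas overlapped (means of 77.5 ± 16.3 and 71.9 ± 14.3 CPM, SD, n = 3 each, ratio 1.08), and both lay above all soleus libraries (mean 3.95 ± 1.61 CPM, n = 4). The mean of EDL was 19.6-fold that of soleus and the mean of psoas 18.2-fold, and the lowest library was 13.3-fold in EDL and 11.9-fold in psoas over the highest soleus library.

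Counted by pairs of muscles, the libraries of psoas and EDL did not overlap for 3 of the 7 genes, with Crip3 and Rxfp2 higher and Fam19a4 lower in psoas, where 29.6% of all genes did not overlap (13.4% higher and 16.3% lower in psoas). For soleus vs EDL they did not overlap for 6 genes, all but Rxfp2, 3 of them higher in soleus (29.5% of all genes, 15.2% higher and 14.3% lower). For soleus vs psoas this held for 6 genes, all but Crip3, 2 of them higher in soleus (25.8% of all genes, 13.9% higher and 11.9% lower). The choice of the genes fixes these counts. Without EDL 1 the count for psoas vs EDL was 5, as Gm12199 and Tecrl, the latter at or under 3 counts in both muscles, no longer overlapped. Pairs that share a muscle share its libraries and are not independent of each other.

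In 3 cases a pair of libraries carried the same animal code, and the direction of each gene can be read there within an animal. For code 659 (psoas 1 and soleus 1), Rxfp2 had 41 and 0 counts, Gm12199 51 and 0, Fam19a4 14 and 0, Tecrl 0 and 53, and A730036I17Rik 0 and 25. For code 765B (psoas 3 and soleus 4), the same genes had 25 and 1, 21 and 0, 9 and 0, 0 and 290, and 0 and 36 counts. For code 765A (EDL 3 and soleus 2), Tecrl had 1 and 140 counts, A730036I17Rik 0 and 75, Gm12199 23 and 0, Fam19a4 12 and 0, and Rxfp2 0 in both. Each pair shows the direction of the muscle means for these genes, apart from Rxfp2 in code 765A. Tspan8 was at 59.6 CPM in psoas 1 and 4.93 CPM in soleus 1, at 68.5 and 4.28 CPM in code 765B, and at 96.2 and 1.59 CPM in code 765A. Crip3 was at 2.51 CPM in psoas and 1.10 CPM in soleus in code 659 and at 1.98 and 0.106 CPM in code 765B, although the muscles overlapped over all libraries.

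**Figure D2:**
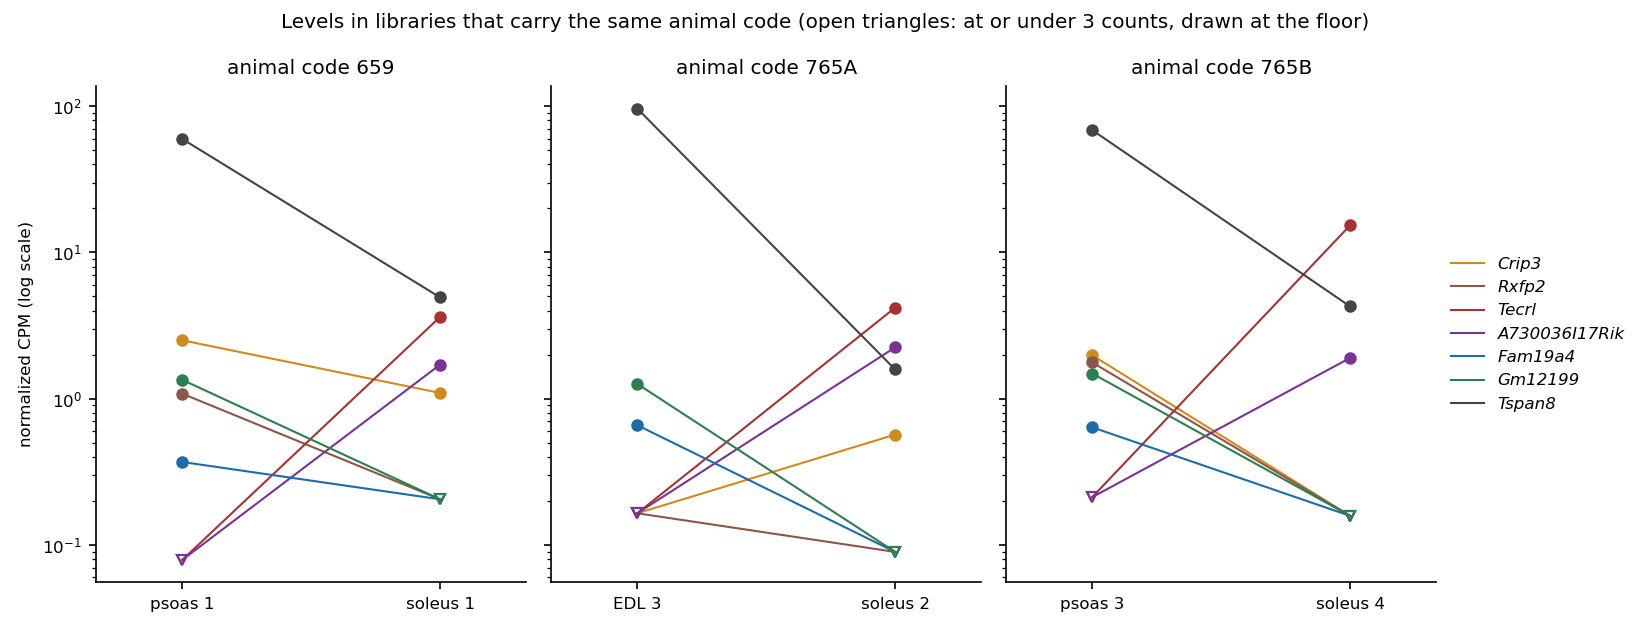
Normalized CPM (log axis) of the 7 genes in the 3 pairs of libraries with the same animal code, with open triangles at the floor for libraries at or under 3 counts. Tecrl and A730036I17Rik are higher in soleus in all 3 pairs, Tspan8, Gm12199, and Fam19a4 are lower, and Crip3 is lower in soleus than in psoas and higher in soleus 2 (19 counts) than in EDL 3 (0 counts). Rxfp2 is at the floor at both ends in code 765A.

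Apart from Tspan8 and Tecrl, all of the genes were low even in the muscle where they were highest. The mean of Tspan8 in EDL was above that of 94.0% of all genes and that of Tecrl in soleus above 58.1%. The others stood above 20.7% (Fam19a4 in EDL), 27.0% (Rxfp2 in psoas), 31.2% (Crip3 in psoas), 31.7% (A730036I17Rik in soleus), and 32.0% (Gm12199 in psoas). The median gene was at 5.40 CPM in EDL, 5.03 CPM in psoas, and 5.28 CPM in soleus. Per length of the summed exons, the genes in the muscle of their highest level were ordered from Tspan8 (45.5 FPKM, fragments per kilobase of exon, scaled to library size) over Gm12199 (3.42), Tecrl (3.37), Crip3 (1.11), A730036I17Rik (0.515), and Rxfp2 (0.223) to Fam19a4 (0.189). Gm12199 thus stood beside Tecrl per length, since its exons are short (517 bases against 2350).

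Fiber type markers differed widely between the same muscles. Summed over 8 slow fiber markers (Myh7, Myl2, Myl3, Tnni1, Tnnt1, Tnnc1, Atp2a2, and Tpm3), levels were 19710 to 31560 CPM in soleus, 77.1 to 369 CPM in EDL, and 39.0 to 115 CPM in psoas, and 8 of 8 were higher in soleus than in either muscle by edgeR's quasi-likelihood test (adjusted p under 0.01 and fold over 2). Over 8 fast fiber markers (Myh4, Tnni2, Tnnt3, Tnnc2, Atp2a1, Mybpc2, Actn3, and Pvalb), the sum was 9360 to 14680 CPM in soleus, 61710 to 92800 CPM in EDL, and 91870 to 95390 CPM in psoas, and 4 of 8 were lower in soleus than in EDL and 5 of 8 lower than in psoas by the same test. Myh4 made up most of the sum in EDL and psoas (means of 44040 and 53920 CPM). In whole muscle, fewer cells or fibers of a type and less RNA per cell cannot be told apart.

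Within soleus, the libraries differed in the fast myosin Myh4, the myosin heavy chain of IIb fibers, as they did in Tspan8. Myh4 was at 1559, 113, 1692, and 1548 CPM in soleus 1 to 4, and Tspan8 at 4.93, 1.59, 5.02, and 4.28 CPM. Soleus 2 was the lowest for both. In EDL and psoas, Myh4 was at 38370 to 56670 CPM. The slow marker sums were 19710, 31560, 27410, and 31200 CPM in soleus 1 to 4. A730036I17Rik was at 1.71, 2.24, 1.60, and 1.90 CPM in soleus 1 to 4. It was highest in soleus 2 and then in soleus 4, as these sums were, which differed little there. Soleus 1 and soleus 3 had the opposite order in this gene and in the sums. Tecrl was at 4.19 CPM in soleus 2 and 15.3 CPM in soleus 4. The part of fiber type in these levels was not tested.

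**Figure D3:**
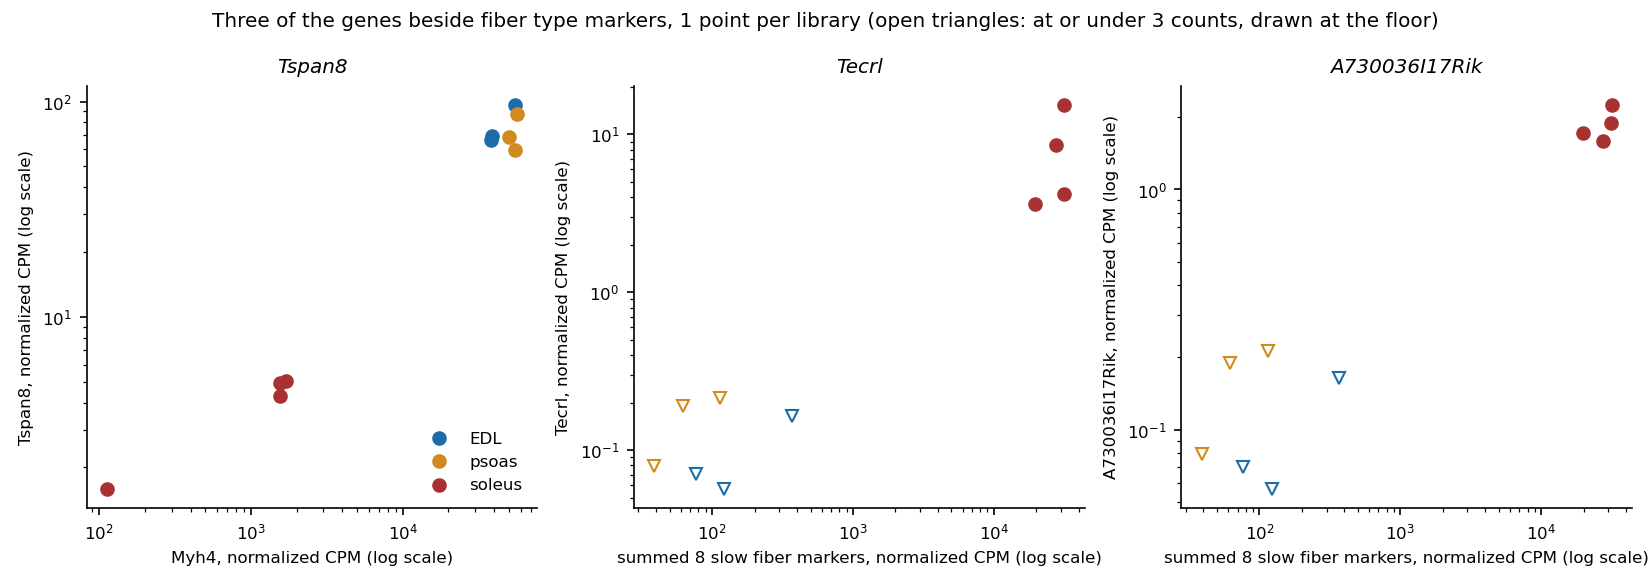
Normalized CPM on log axes, 1 point per library, of Tspan8 beside the fast myosin Myh4 and of Tecrl and A730036I17Rik beside the sum of 8 slow fiber markers; open triangles are libraries at or under 3 counts, drawn at the floor. Soleus 2 is lowest for both Tspan8 (1.59 CPM) and Myh4 (113 CPM), whereas the soleus libraries spread in Tecrl from 3.63 to 15.3 CPM with slow marker sums from 19710 to 31560 CPM.

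Markers of other cell types also differed between the muscles. Tendon markers (8 of 8 measured) summed to 690 to 782 CPM in EDL, 30.9 to 82.4 CPM in psoas, and 113 to 464 CPM in soleus. Fam19a4 and Tspan8 also had their highest mean in EDL, but Tspan8 was at a like level in psoas (77.5 and 71.9 CPM). Both genes were lowest in soleus (means of 0 and 3.95 CPM), where the tendon sums lay above those of psoas. Fibroblast markers (8 of 8) summed to 1015 to 1790 CPM in EDL, 370 to 634 CPM in psoas, and 533 to 607 CPM in soleus. Adipocyte markers (7 of 8, without a row for Ucp1) summed to 1686 to 1803 CPM in soleus, 243 to 264 CPM in EDL, and 467 to 541 CPM in psoas. Most of this was lipoprotein lipase, Lpl (1645 ± 37.1 CPM in soleus, 236 ± 18.5 CPM in EDL, and 471 ± 53.7 CPM in psoas), which muscle fibers also make, and it was the 1 gene of the 7 that passed edgeR's test for soleus against either muscle. Adipoq, which defines adipocytes, was higher in every soleus library than in EDL, while soleus and psoas overlapped. Its levels were 16.6, 11.2, 25.7, and 6.33 CPM in soleus 1 to 4. They were 2.08 to 5.37 CPM in EDL and 1.06 to 8.42 CPM in psoas. With edgeR, all 7 measured adipocyte markers had an unadjusted p under 0.05 in soleus against EDL, and 6 did against psoas. The share of all genes under this cut is not given here. DESeq2 called 3 of the 7 in each of these comparisons. Soleus 4, the highest library for Tecrl, was the lowest of the soleus libraries for Adipoq. Satellite cell markers (8 of 8) summed to 81.3 to 98.3 CPM in soleus, 59.8 to 65.9 CPM in EDL, and 36.7 to 43.3 CPM in psoas. Most of this was Sdc4 (59.5, 26.3, and 24.0 CPM in soleus, EDL, and psoas) and Chodl (16.7, 22.6, and 4.92 CPM). Pax7 (1.07, 0.548, and 0.506 CPM) and Myf5 (1.16, 0.589, and 0.830 CPM) did not pass edgeR's test in any comparison. The median log2 fold change of the 8 for psoas vs EDL was −0.07. Of 8 markers of muscle spindles and sensory endings, which bear on Fam19a4, 6 were measured, without a row for Egr3 and Runx3. The touch channel Piezo2 (3.03 CPM in EDL and 0.684 CPM in psoas) and Ntf3 (1.72 and 0.398 CPM) were lower in psoas than in EDL by the same test. Gfra1 (8.21 CPM in EDL and 2.58 CPM in soleus) and Pvalb (5836 and 209 CPM), which fast fibers also make, were lower in soleus than in EDL. Pvalb was at 6217 CPM in psoas. Etv4 (1.19, 1.30, and 1.88 CPM in EDL, psoas, and soleus) and Etv5 (3.30, 4.37, and 3.26 CPM) did not pass in any comparison. The median log2 fold change over the 6 was −0.19 for psoas vs EDL and −1.1 for soleus vs EDL. Of 8 epithelial and mesothelial markers, which bear on Tspan8, Epcam, Cdh1, Krt8, Krt18, Msln, Upk3b, and Lrrn4 had no row, and Krt19 was at 0.127 to 0.797 CPM over the libraries. The part of these cells in the levels of the 7 genes was not tested.

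The relatives of the 7 genes were examined with the test that could be run on them, edgeR's quasi-likelihood test over all 16112 genes, where a gene passed with a fold over 2 and an adjusted p under 0.01. Of all genes, 2.11% passed for psoas vs EDL (0.54% higher and 1.57% lower in psoas), 5.77% for soleus vs EDL (3.59% higher and 2.18% lower in soleus), and 5.69% in soleus vs psoas (2.99% higher and 2.71% lower). Of 49 measured genes in the families of the 7, 2, 3, and 6 passed in these comparisons. Both genes of psoas vs EDL were lower in psoas. For soleus vs EDL, 2 were higher and 1 lower in soleus, and for soleus vs psoas, 2 were higher and 4 lower. The median log2 fold changes over the 49 were −0.39, −0.41, and 0.15, against 0.01, −0.05, and 0.02 over all genes. The counts were 0 for psoas vs EDL without EDL 1, EDL 2, or psoas 1 and 1 without psoas 2 or psoas 3. For soleus vs EDL they were 0 without EDL 2, 1 without soleus 1, and 5 without EDL 3, and for soleus vs psoas 2 without psoas 2 and 3 without psoas 1 or soleus 2. Calls over all genes moved in the same fits. For psoas vs EDL, 340 became 69, 87, and 92 without EDL 1, EDL 2, and psoas 1, and 61 and 87 without psoas 2 and psoas 3. For soleus vs EDL, 929 became 405, 688, and 1511 without EDL 2, soleus 1, and EDL 3. For soleus vs psoas, 917 became 493, 568, and 609 without psoas 2, psoas 1, and soleus 2.

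Among the 5 cysteine-rich LIM proteins other than Crip3, Crip1 differed in the opposite direction to Crip3. It was at 36.6 ± 8.71 CPM in EDL, 12.9 ± 2.81 CPM in psoas, and 28.6 ± 2.75 CPM in soleus, lower in psoas than in EDL by edgeR's test (log2 ratio −1.50, SE 0.21, adjusted p = 0.00297) and higher in soleus than in psoas (1.15, SE 0.20, adjusted p = 0.00322). The first call was lost without EDL 1, EDL 2, psoas 1, or psoas 3 (adjusted p up to 0.0142 over 19 alternatives), the other without psoas 1 or psoas 3 or with the replicate block (up to 0.0212). Crip2 did not pass in any comparison (9.34, 6.25, and 9.33 CPM). Csrp3, the muscle LIM protein of the Z-disc, was at 24.8 ± 6.00 CPM in EDL, 76.4 ± 91.1 CPM in psoas, and 394 ± 134 CPM in soleus, higher in soleus than in EDL (log2 fold change 3.99, SE 0.83, adjusted p = 0.00789 from edgeR). This call failed in 11 of 19 alternatives, with an adjusted p of up to 0.219, among them the fits without any single EDL or soleus library.

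For Tecrl, the relatives were the enzymes of fatty acid elongation and the genes of calcium release that share its arrhythmia. Tecr, its closest paralog, was read in all muscles (30.7 ± 10.5 CPM in EDL, 57.5 ± 27.7 CPM in psoas, and 61.3 ± 7.18 CPM in soleus) and did not pass for soleus vs EDL (log2 fold change 1.0, SE 0.30, adjusted p = 0.0386 from edgeR). Of 11 measured elongation genes of 16, 1 passed for soleus vs psoas, the dehydratase Hacd1, lower in soleus (33.8 ± 13.0 against 86.5 ± 5.92 CPM, log2 fold change −1.35, adjusted p = 0.00867), a call lost in 10 of 19 alternatives (adjusted p up to 0.0652). Of the 6 calcium release genes, Casq2, the calsequestrin of heart and slow muscle, was higher in soleus (298 ± 141 CPM) than in EDL (24.3 ± 4.92 CPM, log2 fold change 3.62, SE 0.56, adjusted p = 0.00169) and than in psoas (45.2 ± 37.6 CPM, 2.73, adjusted p = 0.00604). Against EDL it was lost without EDL 1 or EDL 2 or with trimming as a covariate (adjusted p up to 0.0147), and against psoas without psoas 1, psoas 2, soleus 2, or soleus 4 or with this covariate (up to 0.0315).

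The calmodulin genes went the other way. Calm3 was lower in soleus (91.2 ± 13.0 CPM) than in EDL (204 ± 47.1 CPM, log2 fold change −1.16, SE 0.21, adjusted p = 0.00357 from edgeR) and than in psoas (221 ± 38.7 CPM, −1.28, adjusted p = 0.00197). Calm2 was lower in soleus (98.3 ± 3.61 CPM) than in psoas (222 ± 22.4 CPM, log2 fold change −1.18, adjusted p = 0.000429), which failed in 1 of 19 alternatives, the run proxy (adjusted p = 0.0117). The calls of Calm3 were lost with trimming, the run proxy, or the block, against EDL also without EDL 2, soleus 1, or soleus 4 (adjusted p up to 0.0718), and against psoas also without psoas 2 (up to 0.0406). Ryr2, the heart calcium release channel, was at 0.257, 0.230, and 0.191 CPM in EDL, psoas, and soleus.

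Around Rxfp2, none of the 8 listed relaxin family genes (Rxfp1, Rxfp3, Rxfp4, Insl3, Insl5, Insl6, Rln1, and Rln3) has a row in the table used here, so that neither its ligand Insl3 nor another receptor could be compared. Of the 4 other members of the Fam19a4 family, Fam19a1 and Fam19a2 have no row. Fam19a3 was at 0.995 ± 0.498, 2.65 ± 0.946, and 1.14 ± 0.426 CPM and Fam19a5 at 1.28 ± 0.384, 1.30 ± 0.340, and 2.35 ± 1.28 CPM in EDL, psoas, and soleus. Both were read in soleus, where Fam19a4 was at 0. Of the 25 measured tetraspanins besides Tspan8, of 31 listed, Cd9 was lower in psoas (11.2 ± 1.33 CPM) than in EDL (27.8 ± 6.34 CPM, log2 fold change −1.32, SE 0.19, adjusted p = 0.00297 from edgeR), a call lost without EDL 1, EDL 2, psoas 1, or psoas 2 or with the block (adjusted p up to 0.0155). Rom1 was lower in soleus (2.64 ± 0.548 CPM) than in psoas (7.15 ± 1.47 CPM, log2 fold change −1.45, adjusted p = 0.00502), which failed in 8 of 19 alternatives (up to 0.0294). For soleus vs EDL, the large difference of Tspan8, 0 of the 25 passed with edgeR (5.77% of all genes), 1 with DESeq2, and 0 with limma-voom. An unadjusted p under 0.05 from edgeR was found for 8, and the share of all genes under this cut is not given here.

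The genes next to the 7 on the chromosome were tested in the same fit. The 14 neighbors were the nearest genes of the table on either side and any overlapping gene. They were Zfp318 and the pseudogene Gm5093 for Crip3, B3glct and Fry for Rxfp2, the pseudogene Rpl7-ps7 and the ephrin receptor Epha5 for Tecrl, 9830144P21Rik and Ckap2l for A730036I17Rik, Suclg2 and Eogt for Fam19a4, Adamts2 and Zfp354c for Gm12199, and Lgr5 and Ptprr for Tspan8. With edgeR, 0 of 14 passed in each comparison, beside 2.11%, 5.77%, and 5.69% of all genes, so that 0 of 14 is near the share of all genes. An unadjusted p under 0.05 from edgeR was found for 6 in psoas vs EDL, 7 in soleus vs EDL, and 2 in soleus vs psoas. The share of all genes under this cut is not given here, so that nothing is read from these counts. DESeq2 called Zfp354c for psoas vs EDL and Epha5 for soleus vs EDL (1095 and 1520 of all genes), and limma-voom called 0 in all comparisons. Epha5 passed for soleus vs EDL with edgeR without EDL 3 and Zfp354c without soleus 2. Some neighbors lie far off, such as Epha5 at 699.6 kb from Tecrl and Suclg2 at 1112.4 kb from Fam19a4, and the closest of those that do not overlap are Gm5093 at 7.8 kb and Zfp318 at 8.0 kb from Crip3.

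Among the neighbors of the soleus genes, none was higher in soleus by the thresholds. Epha5 was at 1.36 CPM in EDL, 0.588 CPM in psoas, and 0.278 CPM in soleus, lowest where Tecrl was highest (soleus vs EDL, log2 fold change −2.41, SE 0.63, adjusted p = 0.0231 from edgeR). Ckap2l was at 0.443, 0.168, and 0.177 CPM (soleus vs EDL, adjusted p = 0.389). Lgr5 and Ptprr, on either side of Tspan8, were at 0.479 and 1.87 CPM in soleus against 1.09 and 1.22 CPM in EDL (adjusted p = 0.0756 and 0.335). Zfp318, beside Crip3, was at 6.74 CPM in EDL, 10.4 CPM in psoas, and 11.3 CPM in soleus and did not pass (psoas vs EDL, log2 fold change 0.64, SE 0.27, adjusted p = 0.141).

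**Figure D4:**
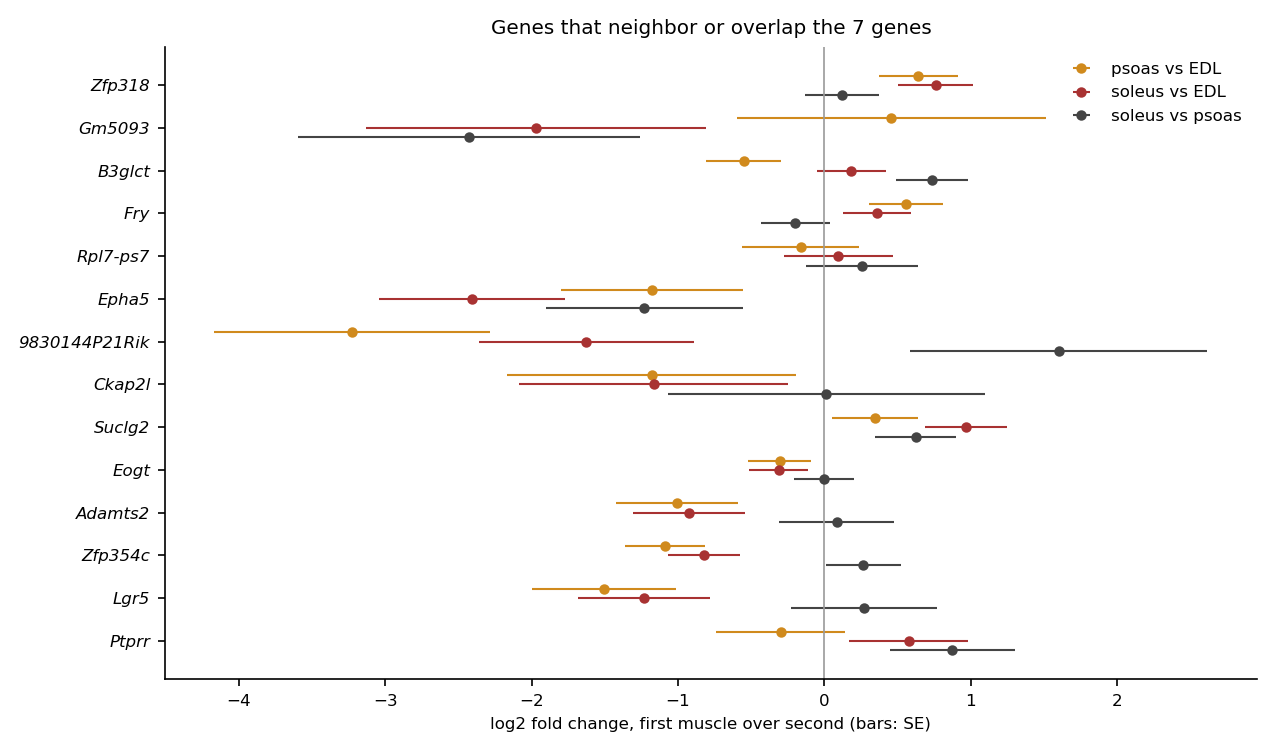
Log2 fold change (edgeR, bars are SE) of the 14 neighboring or overlapping genes in the 3 comparisons, first muscle over second. Most lie within 1.5 of 0, Epha5 (−2.41) and Gm5093 (−1.97) lie lowest for soleus vs EDL and 9830144P21Rik (−3.23) for psoas vs EDL, and none passed the thresholds.

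The genes whose pattern over the 10 libraries was most like that of each gene were sought by Pearson's r of log2(CPM + 0.5), among genes that have a symbol and on average 1 CPM or more in the muscle concerned (12287 to 12907 genes). For Tecrl these included Gm34302 (r = 0.981), which RefSeq names Strit1, the small peptide DWORF that acts on the calcium pump SERCA, and Nme4 (0.977). Gm34302 was at 45.6 ± 24.5 CPM in soleus and 0.287 and 0.0423 CPM in EDL and psoas, with a wide spread between soleus libraries, as for Tecrl. For A730036I17Rik they were Lgi1 (0.992), Tpm3-rs7 (0.987), and the antisense gene Gm29015 (0.986), with 34.6 ± 9.26, 79.0 ± 3.40, and 16.0 ± 13.9 CPM in soleus and at most 2.48 CPM on average elsewhere.

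For Rxfp2 the closest pattern was that of Exoc7 (0.982), a subunit of the exocyst, at 33.8 ± 1.40 CPM in EDL, 78.3 ± 18.4 CPM in psoas, and 30.2 ± 2.89 CPM in soleus, followed by Gm8927 (0.945) and the homeobox gene Hoxc8 (0.937). For Crip3 they were the ubiquitin ligase Ubr2 (0.942), Wipf3 (0.940), and the corepressor Tle4 (0.937), of which Wipf3 had the widest range, with 1.17, 7.58, and 3.73 CPM in EDL, psoas, and soleus. For Fam19a4 they were Zfp820 (0.978), Ints6l (0.975), and 5031425E22Rik (0.975), for Gm12199 Nmt2 (0.983), Pdzd7 (0.982), and Zfp825 (0.980), and for Tspan8 the lysosomal membrane protein Scarb2 (0.987), Sar1b (0.983), and Atl2 (0.983). Sar1b, a GTPase of vesicle budding from the endoplasmic reticulum, was at 335 ± 14.2, 420 ± 77.1, and 97.9 ± 23.2 CPM. All of these values share the same 10 libraries, with their depth and their differences between muscles, and are a description. With Spearman's rho, 6 of the 21 genes were kept, and without single libraries 10 to 15.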

How the data were processed

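The authors trimmed reads of 4 libraries with Trimmomatic, aligned them with TopHat2 to the mouse genome (GRCm38, mm10), counted reads per gene, and dropped genes unless 3 or more samples had 10 or more reads. The deposited values are raw counts, 1 file per library, without normalization. How multi-mapping reads and strand were treated, and the sequencing run of each library, are not given in the sources used here.

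The 7 genes, their families, neighbors, and marker lists were chosen with earlier results of these data known. Counts of all 16112 genes (16032 with a symbol in GENCODE M21) were fitted with edgeR 4.0.16 (R 4.3.3), TMM normalization, 1 quasi-likelihood fit over 10 libraries, and no covariate, with calls made at an adjusted p (Benjamini-Hochberg) under 0.01 with a fold over 2. A fold against a muscle with 0 counts is a lower bound (3 counts per library), and with 1 to 3 counts a ratio of pooled counts with an exact 95% interval. Replicates are samples of separate label codes, some from 1 animal, so that p-values measure the spread between these samples. DESeq2 1.42.0, limma-voom (limma 3.58.1), other normalizations and filters, covariates for trimming and for the run proxy (levels made from trimming and age), a replicate block, and the removal of each library were alternatives. Values within trimmed and untrimmed libraries, a limma-voom fit with the animal code as a random block, and the ratio of Rxfp2 by pooled counts were added after seeing the data. The text names the 7 genes, family genes that passed and closest paralogs, all neighbors, and the 3 genes of most like pattern for each, of which 1 is not reported here. Single markers (Myh4, Lpl, Adipoq, Piezo2, Ntf3, Gfra1, Pvalb, Etv4, Etv5, Sdc4, Chodl, Pax7, and Myf5) were named after their values were seen. Figures were drawn with Python 3.11.15 and matplotlib 3.10.9.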

Additional observations from a re-analysis of the deposited data

How the results depend on the processing

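For the 7 genes, 156 recomputed muscle means moved by less than 1 SD between libraries (which for means near the floor can still be several-fold, as for Rxfp2 in EDL, 0.0374 CPM and 0.00942 CPM without EDL 1) and 5 by more, all 5 in untrimmed libraries alone (Rxfp2 in psoas 1.77 CPM, Tecrl in EDL 0.0549 CPM, Fam19a4 in EDL 0.659 and psoas 0.637 CPM, and Tspan8 in EDL 96.2 CPM). The 6 genes with a muscle at or under 3 counts were 6 without any single library, with a floor of 10 counts, and with the floor of the shallowest library as CPM. With a floor of 1 count they were 5, as Crip3 had 2 counts in EDL 1. Without single libraries, the count of non-overlapping genes ranged from 3 to 5 for psoas vs EDL (5 without EDL 1), stayed at 6 for soleus vs EDL, and ranged from 6 to 7 for soleus vs psoas (7 without psoas 2 or soleus 1). The cause of the following changes was not tested. Family genes called (2 for psoas vs EDL, 3 for soleus vs EDL, 6 in soleus vs psoas) were 1, 1, and 2 with the replicate block and 7, 12, and 11 at an adjusted p under 0.05 and any fold. For soleus vs EDL they were 5 with DESeq2, 6 under upper quartile scaling (median log2 change of all genes −0.14), 0 with trimming as a covariate, and 1 with the run proxy, and for soleus vs psoas 2 with either covariate. Without single libraries they ranged from 0 to 3, 0 to 5, and 2 to 6. Calls over all genes (340, 929, and 917) were 146, 586, and 539 with the block and 1789, 2995, and 2340 at an adjusted p under 0.05. For soleus vs EDL, all-gene calls were 1520 with DESeq2, 952 under upper quartile scaling, 371 with trimming, and 251 with the run proxy. For soleus vs psoas they were 566 and 475 with these covariates. For psoas vs EDL they were 605 and 757, and 1095 with DESeq2. Neighbors called (0 in each) were 1 with DESeq2 for psoas vs EDL and for soleus vs EDL, 2 and 3 at an adjusted p under 0.05 and any fold, and 0 to 1 without single libraries for soleus vs EDL. Marker genes called were 15 for psoas vs EDL and 24 with DESeq2, 23 with trimming or the run proxy as a covariate, 8 with the replicate block, 28 at an adjusted p under 0.05, and 2 to 20 without single libraries (2 without psoas 3, 3 without EDL 1, 4 without EDL 2, psoas 1, or psoas 2, 6 without soleus 4, and 9 without soleus 1). For soleus vs EDL they were 23, 14 with trimming, 9 with the run proxy, and 13 to 23 without single libraries (13 without EDL 1, 14 without EDL 2, and 15 without soleus 4), and for soleus vs psoas 23, or 17 to 25. Of the 21 genes of most like pattern, Spearman's rho kept 6 and the removal of single libraries 10 to 15. Over the 11 family changes that passed, 149 alternatives kept the call, 60 lost it, and 0 reversed it. Same-numbered libraries did not deviate together in every pair (r from −0.23 to 0.50). In EDL and psoas, libraries of the same number share age, sex label, and trimming, and their r was 0.25, 0.09, and 0.50. EDL 1 with psoas 2, of other numbers, had 0.30. The negative values were from pairs with soleus, where ages match by number in replicate 1 alone. Whether the number pairs EDL and psoas is thus open, and calls lost under the block may be weaker effects. The 3 pairs with a shared animal code had r from 0.19 to 0.38. Pairs without a shared code reached 0.50 (EDL 3 with psoas 3). Those libraries carry codes 765A and 765B, both of 44 days, and the labels hold more codes than mice. Whether they are separate animals is open, so that this pair does not serve as an unrelated one. EDL 1 and psoas 2, from mice of 42 and 54 days, had r of 0.30, within the range of the shared codes. With the animal code as a random block in limma-voom (correlation 0.24), family genes called were 2, 3, and 7, neighbors 0, 0, and 0, and marker genes 16, 22, and 29, and no family change that passed lost its call. Depth limits the soleus bounds of Fam19a4 and the order of EDL and soleus for Rxfp2.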
